A study of Mus musculus with 24 samples.

Results

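Reactivation of T helper cells was followed with the BET bromodomain proteins inhibited, on the 6 of 24 arrays whose cells had received 500 nM JQ1. The arrays were chosen by the labels alone and form 3 pairs of 1 unstimulated and 1 reactivated array, of Th1 cells at 6 hr, Th1 cells at 24 hr and Th2 cells at 6 hr of treatment. The cells came from female C57BL/6 mice and had been differentiated in vitro from naive CD4+ T cells, so the Th1 and Th2 arrays describe polarised cultures and not cells taken from tissue. Each array carried the RNA of 1 condition labelled with Cy3 against naive CD4+ T cell RNA from lymph nodes and spleens labelled with Cy5, and no condition had a replicate. The 6 arrays of the vehicle, DMSO, form the same 3 pairs and served as the control. Th1 cells with DMSO were sampled at 6 and 24 hr, whereas for Th2 cells with DMSO the time was unclear, as titles said 24 hr and source names 6 hr. The pairs with 50 nM JQ1, of Th1 and Th2 cells at 6 hr, are set beside these where they exist. How the cells were reactivated is not given in the labels. The comparison asks which genes reactivation still raised or lowered when BET proteins were inhibited.

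JQ1 occupies the acetyl-lysine pocket of the bromodomains of BET proteins such as Brd2 and Brd3, and so takes these proteins off acetylated chromatin. BET proteins link acetylated enhancers and promoters to the elongation kinase P-TEFb, which releases paused RNA polymerase II into productive transcription. A T helper cell that meets its antigen again transcribes cytokine, chemokine and early response genes within hours through NFAT, AP-1 and NF-kB, and lowers genes of the resting state. Loci of this kind often carry large enhancers rich in BET proteins.

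All values are log2 ratios of Cy3 over Cy5 unless another scale is named, so that a level of 0 is the level in naive cells. A change is the reactivated minus the unstimulated array of a pair. Changes were tested over the 3 pairs with limma's moderated test, and a gene was called at an adjusted p (Benjamini-Hochberg over all genes tested) below 0.05. The pairs are different cell contexts that stand in for replicates, so p-values measure how far a change recurred over Th1 and Th2 cells and over times, and the error given is the SE over the 3 pairs. Normalization over a whole array assumes that most genes equal the naive reference, and spike-in RNA, added in known amounts, offers another scale. The spike-in RNA of the Th1 6 hr pair lay at -0.60 in unstimulated and 0.76 in reactivated cells, against 0.21 and -0.01 in the Th1 24 hr pair and -0.30 and 0.16 in the Th2 pair. In the Cy3 channel 43.8% to 50.5% of probes stood well above background by the scanner software's call on the 6 JQ1 arrays, and fewer did on the reactivated array of each JQ1 pair. The DMSO arrays had 48.8% to 52.0%. The 9 T cell markers were above background on all 6 JQ1 arrays, and on reactivation 6 of them were called lower and 1 higher with JQ1 (median -0.597) and 5 and 1 with DMSO (median -0.454). Over all genes tested, 27.7% were called lower and 18.4% higher with JQ1, and 29% and 21.9% with DMSO. Of other markers, none of the 3 for NK cells was above background on any JQ1 array, and 4 to 5 of 6 for B cells and 2 to 3 of 5 for myeloid cells were. So were 2 to 3 of 4 for dendritic cells, 0 to 2 of 2 for CD8 T cells and 1 of 2 for erythroid cells. Under JQ1 1 of 5 tested B cell markers was called higher and 1 lower, and 1 of 3 dendritic markers higher. No CD8 T cell, myeloid or erythroid marker was called. The part of other cell types in the results was not tested. In such bulk RNA, fewer cells of a type and less RNA per cell cannot be told apart.

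Reactivation under JQ1 raised 2229 of 12133 genes tested (18.4%) and lowered 3360 (27.7%). The named genes below therefore stand among many. With DMSO the counts were 2746 of 12530 genes (21.9%) raised and 3637 (29%) lowered. The median change over all genes was -0.06 with JQ1 and -0.05 with DMSO, and the median absolute change was 0.363 with JQ1 and 0.442 with DMSO. By size alone, 497 genes (4.1%) rose and 488 (4.02%) fell at least 2-fold in all 3 JQ1 pairs. The split of calls depended on the scale. Genes higher made up 39.9% of all calls after loess within arrays, 20.1% with each array centred on its median, 17.4% with centring on the spike-in RNA (354 higher, 1685 lower) and 15.3% with loess followed by a spike-in shift (277 higher, 1529 lower). These scalings moved the median of all genes to -0.27, -0.41 and -0.59, and gene changes below are relative to the bulk of genes unless a spike-in scale is named. Without the Th1 24 hr pair, 1484 genes were called higher.

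The calls of both treatments mostly coincided. Of 11942 genes tested with both, 1850 were called higher in both, which was 83.4% of those called higher with JQ1 and 70.2% of those called higher with DMSO. Called lower in both were 2750 genes, 82.5% of those lower with JQ1 and 77.7% of those lower with DMSO. No array was shared between these sets. Opposite calls were made for 14 genes, named further on.

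**Figure D1:**
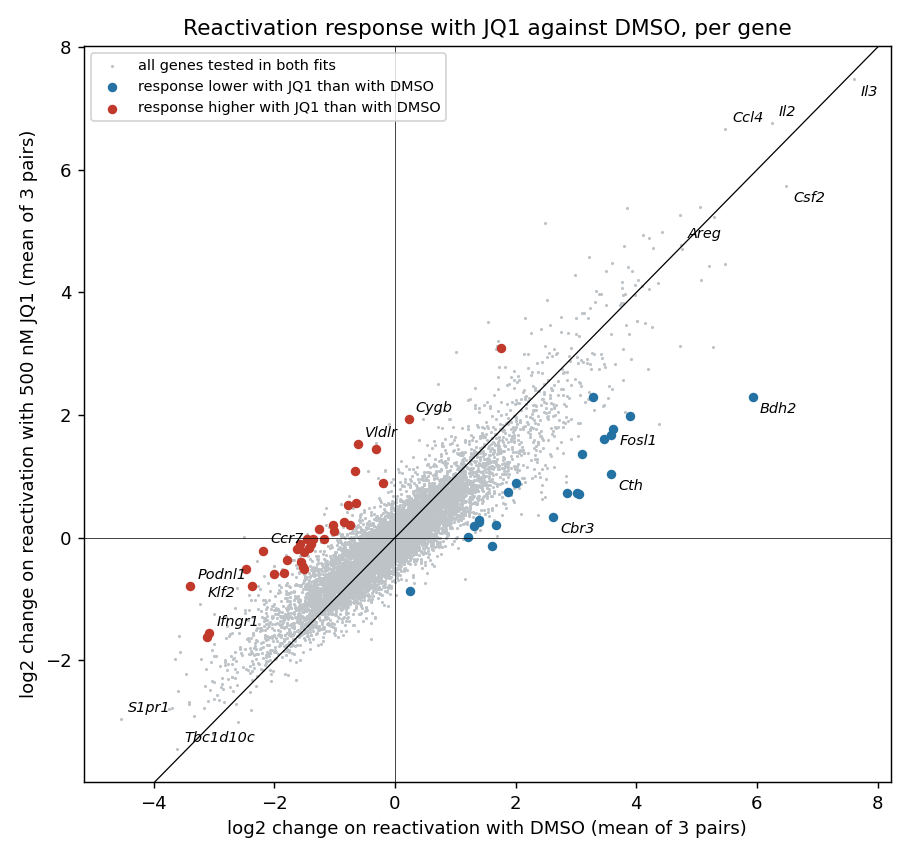
Each point is a gene tested in both fits, with its log2 change on reactivation with DMSO on the x axis and with 500 nM JQ1 on the y axis, each the mean of 3 pairs. Blue and red points are genes whose response was called lower or higher with JQ1 than with DMSO, the diagonal marks equal changes, and Il3 lies on that line at the far right while Bdh2 lies far below it.

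The 10 largest rises under JQ1, among called genes above background on all 6 arrays, were those of Il3, Ccl4, Tnfsf8, Egr2, Crtam, Gm13889, Plek, Trib1, Penk and Areg. All 10 were also called higher with DMSO. Interleukin 3, a growth factor for haematopoietic progenitors and mast cells that activated T cells secrete, headed the list. Its level in unstimulated JQ1 cells was 0.06 in Th1 at 6 hr, 0.19 in Th1 at 24 hr and 0.42 in Th2, close to naive cells. In reactivated JQ1 cells it was 7.49, 8.10 and 7.50. The groups did not overlap and lay far apart. Il3 thus changed by 7.43, 7.91 and 7.08 in the 3 pairs, a mean of 7.47 ± 0.17 (moderated SE, 3 pairs, limma adjusted p 4.01e-05). With DMSO the 3 pairs changed by 8.28, 7.07 and 7.47, and the difference between treatments was -0.13 with an adjusted p of 0.889. The reference channel of Il3 itself varied over a range of 3.73 (log2) between the 12 arrays. From the Cy3 channel alone Il3 changed by 7.70, 8.90 and 7.82 with JQ1 and by 10.6, 10.7 and 8.92 with DMSO, and the difference of -1.92 had an adjusted p of 0.149.

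Areg encodes amphiregulin, a ligand of the epidermal growth factor receptor with a part in tissue repair. Its level rose from 1.30, 0.78 and 1.33 in unstimulated JQ1 cells to 6.10, 5.35 and 6.29 in reactivated ones. The 3 changes, 4.81, 4.57 and 4.96, were close to each other on the ratio, with a mean of 4.78 ± 0.13 (adjusted p 4.01e-05), and the DMSO mean was 4.74. The reference channel of Areg varied over 1.47 (log2), and from Cy3 alone the changes of 5.37, 4.93 and 6.41 lay further apart. Penk, the precursor of the enkephalin opioid peptides, changed by 4.96, 5.04 and 4.66 with JQ1, and by 5.04, 3.51 and 4.09 with DMSO. Its reference channel varied over 1.86 (log2), and from Cy3 alone it changed by 4.95, 5.41 and 6.52 with JQ1, highest and not lowest in Th2 cells. Ccl4, a chemokine that draws monocytes and T cells, changed by 6.43, 5.86 and 7.71 with JQ1 against 5.20, 3.84 and 7.40 with DMSO. Its reference channel varied over 3.41 (log2) between arrays, and from Cy3 alone it changed by 7.93, 8.59 and 7.76 with JQ1 and by 7.64, 7.08 and 7.93 with DMSO, so that the order of Th2 cells was turned. Plek, which encodes the protein kinase C substrate pleckstrin, rose by 4.99 with JQ1 and 4.42 with DMSO.

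Tnfsf8, the ligand of CD30, rose by 4.91, 5.11 and 6.11 with JQ1 (mean 5.38 ± 0.24, adjusted p 0.000152) and by 2.96, 4.24 and 4.32 with DMSO. The difference of 1.54 was not called (adjusted p 0.155), but was with each JQ1 pair matched to the DMSO pair of its context (adjusted p 0.00243). Gm13889 showed the widest gap of the 10 genes, with a mean of 5.13 under JQ1 and 2.49 with DMSO, and that difference of 2.64 was not called either (adjusted p 0.208). Each JQ1 change of Gm13889 (5.45, 3.52 and 6.42) exceeded the DMSO change of its own context (3.17, 0.76 and 3.54), and the fit with matched contexts called the difference (adjusted p 8.83e-05). Crtam, an adhesion receptor of activated T cells, changed by 5.94 and 6.23 in Th1 cells and 3.52 in Th2 cells with JQ1. Egr2, a zinc finger factor induced by antigen receptor signals, changed by 3.41 in Th1 cells at 6 hr, 6.50 at 24 hr and 5.86 in Th2 cells. Trib1, a pseudokinase scaffold, rose by 4.94 under JQ1 and 4.11 with DMSO. The fit with matched contexts also called the differences of Trib1, Ccl4 and Plek on the ratio (adjusted p 0.0111, 0.0208 and 0.0295). It did not call those of Il3, Egr2, Crtam, Penk and Areg.

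**Figure D2:**
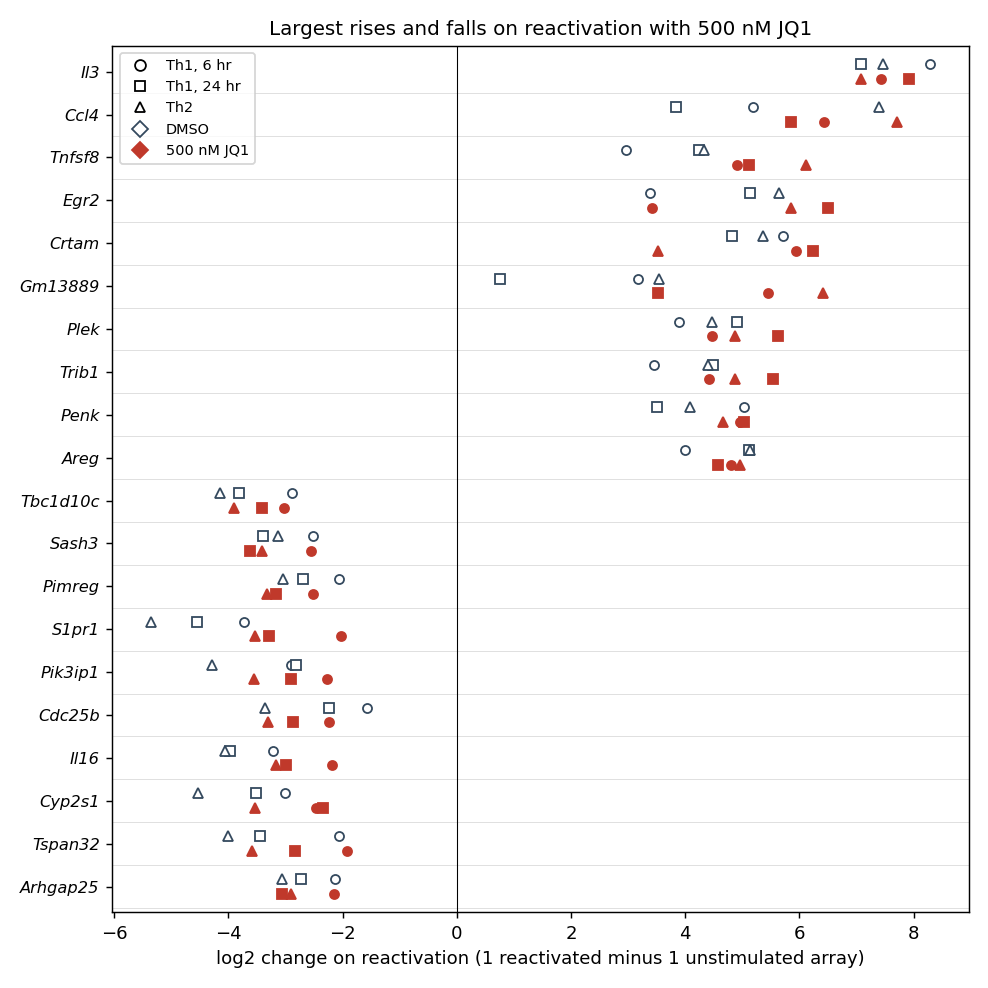
Log2 changes on reactivation (x axis, 1 reactivated minus 1 unstimulated array) of the 10 genes with the largest rise and the 10 with the largest fall under 500 nM JQ1. Marker shapes are the Th1 6 hr, Th1 24 hr and Th2 pairs, filled markers are JQ1 and open markers DMSO, and for Il3 and Areg the filled markers, at 7.08 to 7.91 and 4.57 to 4.96, lie among the open ones, at 7.07 to 8.28 and 3.99 to 5.13.

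The 10 largest falls under JQ1 were those of Tbc1d10c, Sash3, Pimreg, S1pr1, Pik3ip1, Cdc25b, Il16, Cyp2s1, Tspan32 and Arhgap25, and all 10 were called lower with DMSO as well. Tbc1d10c, also known as carabin and an inhibitor of calcineurin and Ras, had levels of -1.80, -0.97 and -1.27 in unstimulated JQ1 cells. After reactivation they were -4.82, -4.38 and -5.17. The groups did not overlap, and the change of -3.44 ± 0.18 (adjusted p 0.000225) lay beside -3.62 with DMSO. Sash3, an adaptor of lymphocyte signalling, changed by -3.20 with JQ1 and -3.02 with DMSO. S1pr1, the sphingosine 1-phosphate receptor through which T cells leave lymph nodes, changed by -2.04, -3.30 and -3.53 with JQ1 and by -3.73, -4.55 and -5.35 with DMSO. Its fall was smaller with JQ1 in each context. The difference of 1.59 was not called (adjusted p 0.182), but was in the fit with matched contexts (adjusted p 0.00068). Pik3ip1, an inhibitor of PI3 kinase, changed by -2.91 with JQ1 and -3.34 with DMSO. Il16, a CD4 ligand made constitutively, changed by -2.78 and -3.75, with a difference of 0.96 (adjusted p 0.204, and 0.00294 in the fit with matched contexts). Pimreg and Cdc25b, both expressed in dividing cells, changed by -3.00 and -2.80 under JQ1.

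The promoters of Il3 and Areg are shown because the ratios of these genes changed to about the same extent with and without JQ1 (for Il3 this held for the ratio and not for Cy3 alone). Those of Bdh2 and Slc9b2, described further on, are shown because their levels in reactivated cells were lower with JQ1 than with DMSO. Sequences are from RefSeq, assembly GRCm38.p6, and run from 250 bases before to 50 bases after the start site in the direction of the gene, for Il3 at chr11:54267230-54267529 (minus strand), Areg at chr5:91139349-91139648 (plus strand), Bdh2 at chr3:135280971-135281270 (plus strand) and Slc9b2 at chr3:135307450-135307749 (plus strand). Capitals mark matches on either strand to TATAAA, the AP-1 motif TGANTCA, the CRE TGACGTCA, the NF-kB motif GGGANTTCC and the NFAT core GGAAA, which reads TTTCC where it lies on the other strand, and no match overlapped another in these 4 windows.
Il3: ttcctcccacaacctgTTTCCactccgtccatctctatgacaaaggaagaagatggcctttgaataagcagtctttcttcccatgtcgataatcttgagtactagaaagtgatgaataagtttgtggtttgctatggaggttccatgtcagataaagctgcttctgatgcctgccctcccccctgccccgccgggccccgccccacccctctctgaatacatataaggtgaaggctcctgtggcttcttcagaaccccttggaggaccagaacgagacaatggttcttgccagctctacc
Areg: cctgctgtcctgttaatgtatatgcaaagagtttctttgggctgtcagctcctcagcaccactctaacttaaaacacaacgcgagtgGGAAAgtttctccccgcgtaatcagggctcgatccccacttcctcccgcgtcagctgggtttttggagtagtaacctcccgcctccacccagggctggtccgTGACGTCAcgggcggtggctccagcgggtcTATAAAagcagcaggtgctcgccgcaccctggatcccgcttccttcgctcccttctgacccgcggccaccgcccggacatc
Bdh2: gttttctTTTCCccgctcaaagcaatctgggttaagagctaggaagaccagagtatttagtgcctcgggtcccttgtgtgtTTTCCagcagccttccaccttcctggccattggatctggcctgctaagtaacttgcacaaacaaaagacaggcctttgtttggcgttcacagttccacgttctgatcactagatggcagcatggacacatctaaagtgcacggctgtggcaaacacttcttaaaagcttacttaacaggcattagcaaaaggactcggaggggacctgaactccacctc
Slc9b2: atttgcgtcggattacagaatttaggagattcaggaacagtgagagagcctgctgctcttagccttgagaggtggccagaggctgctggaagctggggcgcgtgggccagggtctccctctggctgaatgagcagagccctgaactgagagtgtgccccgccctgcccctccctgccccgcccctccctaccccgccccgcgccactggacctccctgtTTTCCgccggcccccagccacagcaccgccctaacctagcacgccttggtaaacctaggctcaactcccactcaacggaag
Areg held a TATAAA match at -31, a CRE match at -61 and a GGAAA match at -163 relative to the start site, and Il3 held a GGAAA match at -234. Bdh2 held GGAAA matches at -243 and -169 and Slc9b2 at -31, and neither window held the other motifs. Of all 32851 RefSeq promoters of this length, 13.6% hold TATAAA, 7.81% TGANTCA, 1.79% TGACGTCA, 1.68% GGGANTTCC and 61.3% GGAAA. Promoters were matched for 5 of the 10 genes with the largest rise, and of these 5 held GGAAA and 1, Areg, held TATAAA and TGACGTCA. Among 7 of the 10 genes with the largest fall, 5 held GGAAA, Il16 held TGANTCA and Sash3 held GGGANTTCC. Among the 8 genes with the largest negative difference from DMSO 5 were matched and 5 held GGAAA, and among the 8 with the largest positive difference 5 were matched and 4 held it. A match is a description of these letters and not of binding.

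How much of the response without drug remained was described on genes chosen on the DMSO arrays alone. At least 2-fold up in all 3 DMSO pairs were 765 genes, of which 414 (54.12%) were at least 2-fold up in all 3 JQ1 pairs. By context, 58.43% were 2-fold up under JQ1 in Th1 cells at 6 hr, 78.95% in Th1 cells at 24 hr and 76.08% in Th2 cells, and 105 genes were 2-fold up in no JQ1 pair. Their median change with DMSO and with JQ1 was 1.68 and 1.16 in Th1 cells at 6 hr, 1.81 and 1.62 at 24 hr, and 2.08 and 1.54 in Th2 cells. Of 788 genes at least 2-fold down in all 3 DMSO pairs, 386 (48.98%) stayed so in all 3 JQ1 pairs and 103 in none. The filter could be passed on DMSO arrays alone. Genes above background on no JQ1 array, such as Il10, Il33 and Morrbid, thus count as not kept, which is no result about them. The 105 genes and the shares scored by context below hold such genes too. With genes above background on all arrays, 55.11% of genes up and 50.93% of genes down were kept in all 3 JQ1 pairs. In the other direction, only genes with values on all 12 arrays were counted. Of 495 such genes 2-fold up in all 3 JQ1 pairs, 414 (83.6%) were so in all 3 DMSO pairs and 13 in none. Of 487 such genes 2-fold down in all 3 JQ1 pairs, 386 (79.3%) were so with DMSO and 8 in none. The order of up and down turned with the scale, as the share kept was 35.17% of genes up and 69.10% of genes down with median centring, and 11.62% and 10.54% of genes up against 66.59% and 68.85% of genes down on the spike-in scales. Of genes called by limma with DMSO, 17.66% and 13.37% were at least 2-fold up or down in all 3 JQ1 pairs. Without both Th1 6 hr pairs it was 62.44% of genes up and 54.44% of genes down.

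A choice on DMSO values favours DMSO in this comparison, so each context was also scored on genes chosen in the other 2 DMSO pairs. This keeps the scored pair out of the choice. Genes that respond with DMSO alone are still chosen, so the shares still favour DMSO over JQ1. No choice on JQ1 pairs was scored in this way, and the shares were not scored on the other scales. In Th1 cells at 6 hr, 985 genes were up in the other 2 pairs, and of these 77.7% were 2-fold up with DMSO, 71.3% with 50 nM JQ1 and 48.9% with 500 nM JQ1. In Th2 cells the shares of 845 genes were 90.5%, 86.4% and 69.8%. In Th1 cells at 24 hr, where there was no 50 nM pair, they were 86.8% and 71.4% of 881 genes. The order from DMSO to 50 nM to 500 nM was the same in both contexts that had all of them, with each share from 1 pair and the choice on DMSO pairs. Repressed genes showed the same order, with 66%, 64.6% and 43.3% of 1194 genes in Th1 cells at 6 hr, 90.1% and 70.2% of 875 at 24 hr, and 86.8%, 82.9% and 68.3% of 908 in Th2 cells.

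**Figure D3:**
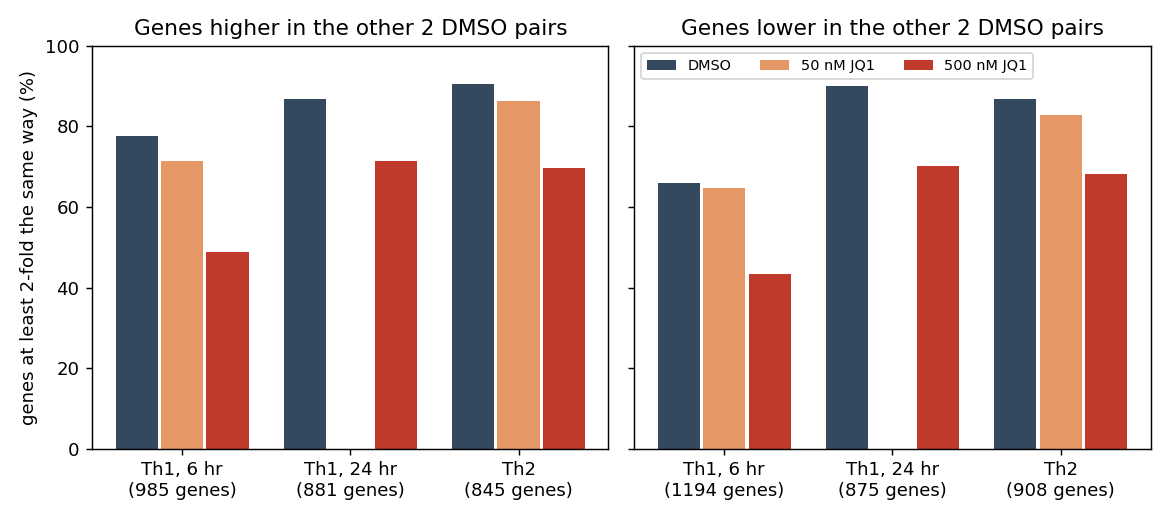
Share of genes (y axis, percent) that changed at least 2-fold the same way in the named context, among genes that did so in the other 2 DMSO pairs, with the number of genes under each context. Bars are DMSO, 50 nM and 500 nM JQ1, 1 pair each, no 50 nM pair exists at 24 hr, and the 500 nM bar is the lowest in every group, at 43.3% to 71.4%.

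The change itself was tested for a difference between treatments. Of 12959 genes, 33 (0.255%) had a response called higher and 25 (0.193%) a response called lower with 500 nM JQ1 than with DMSO, while 2014 genes had an unadjusted p below 0.05. This fit counts the variation of a response between contexts as error. A fit in which the reactivation response could differ between contexts, so that each JQ1 pair is set against the DMSO pair of its own context, called 820 genes higher and 780 lower. Where a difference is given as called or not called, the first fit is meant unless matched contexts are named. The split of the calls moved with the scale here too, from 56.9% of calls higher to 29.2% with median centring and to 4.29% and 0% on the spike-in scales, where 3 and 0 genes were called higher and 67 and 70 lower. Counts fell to at most 2 higher and 7 lower when any pair other than the DMSO Th2 pair was left out, and were 25 and 32 without that pair. Without the Th2 pairs of both treatments they were 5 and 11.

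The 3 JQ1 changes did not overlap the 3 DMSO changes in 2735 of the 12959 genes (21.1%), nor in any of the 58 called ones, which the test had picked for this separation. Of the 25 with a lower response, 24 were called higher with DMSO, and 23 changed the same way but less with JQ1. These 25 include 4 genes not tested under JQ1, Mmp13 and Slc17a6, above background on 1 JQ1 array each, and Il10 and Il33, on none, which passed the filter through their DMSO arrays and for which the calls and counts are no result. In 21 of the 25 the level differed more between treatments in reactivated than in unstimulated cells. The 33 with a higher response were mostly genes that fell with DMSO, 29 being called lower there, and of the 33, 20 changed the same way but less with JQ1, 11 the opposite way and 2 the same way and more. In 21 of the 33 the larger shift in level lay in unstimulated cells. The 50 nM change lay between the DMSO and the 500 nM change for 23 of 25 and 30 of 33 genes in Th1 cells at 6 hr, and for all 25 and all 33 in Th2 cells. The test had picked these genes for a wide gap between the DMSO and 500 nM changes, which favours a value in between. The share over all genes was not counted, and the 25 include the 4 genes not tested under JQ1. No order by dose is read from these counts.

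Bdh2, a short-chain dehydrogenase linked to siderophore and ketone metabolism, had the most negative fitted difference. Its levels in unstimulated cells were 0.08, 0.17 and -0.03 with JQ1 and 0.64, 0.35 and 0.45 with DMSO. Reactivated cells reached 1.94, 2.50 and 2.67 with JQ1 and 6.36, 6.44 and 6.43 with DMSO. Unstimulated levels were thus near those of naive cells with both treatments, and the gap opened on reactivation. The changes were 1.87, 2.33 and 2.70 with 500 nM JQ1, 5.21 and 5.24 with 50 nM in Th1 and Th2 cells at 6 hr, and 5.72, 6.09 and 5.98 with DMSO. Unstimulated JQ1 cells were not well above background for Bdh2, so that its rise under JQ1 was at least 4.02-fold (adjusted p 0.0004). The fitted difference of its changes, -3.63 (limma adjusted p 0.00388), rests on those dim unstimulated values. With the scanner software's own log ratio the difference was 0.34 (adjusted p 0.898), the only sign change among the alternatives for this gene.

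Slc9b2, a sodium/proton exchanger that neighbours Bdh2 on chromosome 3 with start sites 26.5 kb apart, was also among the 8 largest losses. It changed by 0.64, 0.97 and 0.56 with JQ1 and by 2.74, 3.84 and 2.48 with DMSO (difference -2.29 ± 0.34, adjusted p 0.04). Its unstimulated levels were higher with JQ1 (1.83, 2.11 and 2.09) than with DMSO (1.27, 0.75 and 1.59), and its reactivated levels were lower (2.47, 3.08 and 2.65 against 4.01, 4.59 and 4.07). Of the genes around them, Cenpe, a kinetochore motor on the Bdh2 side, had a difference of 0.02 (adjusted p 0.971). On the other side Slc9b1, a related exchanger above background on 4 of 12 arrays only, had a difference of 0.07 (adjusted p 0.894), and Cisd2, an iron-sulfur protein beyond it, had -0.26 (adjusted p 0.457). That these are neighbours was noticed after their values were seen.

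Interleukin 10, a cytokine that restrains inflammation and is made by Th1 and Th2 cells on stimulation, was not above background on any of the 6 JQ1 arrays, where its level lay between -0.07 and 0.06, so that no change was measured under JQ1. With DMSO it went from 0.38, 0.22 and 0.22 in unstimulated cells to 2.85, 3.57 and 2.33 in reactivated ones. Il10 passed the filter through DMSO arrays alone, so that no difference is read from its fit. Il33, an alarmin of the interleukin 1 family that signals to Th2 cells, was not above background on any JQ1 array either. It was above background on 3 of the 12 arrays, all with DMSO. No difference is read from its fit either, and it was named after its values were seen.

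Fosl1, the AP-1 subunit Fra-1, was not above background in unstimulated JQ1 cells, and its rise under JQ1 was at least 3.09-fold (adjusted p 0.000302). Its reactivated levels were 2.05, 1.95 and 1.99 with JQ1 and 3.75, 3.92 and 3.86 with DMSO. The fitted difference of its changes, -1.83 (adjusted p 0.026), rests on those dim unstimulated values. Cth, cystathionine gamma-lyase, which makes cysteine, changed by 0.74, 1.20 and 1.17 against 2.87, 4.15 and 3.74 (difference -2.55, adjusted p 0.0333). Rab11fip4, an effector of the recycling endosome, changed by 1.88, 2.08 and 1.98 against 3.92, 3.61 and 4.18 (difference -1.92, adjusted p 0.011). Cbr3, a carbonyl reductase, changed by 0.02, 0.41 and 0.57 with JQ1, which was not called, and by 2.21, 3.29 and 2.34 with DMSO. Ptpn5, a tyrosine phosphatase best known from neurons, and Car12, a membrane carbonic anhydrase, rose by 0.72 and 0.73 under JQ1 and by 3.04 and 2.85 with DMSO, though from Cy3 alone Ptpn5 changed by 0.81, 0.83 and -0.24 with JQ1. The remaining genes with a lower response, down to Dancr with a difference of -0.98, included Hpdl, Nek6, Mcrip2, Slc25a33 and Tnip3.

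**Figure D4:**
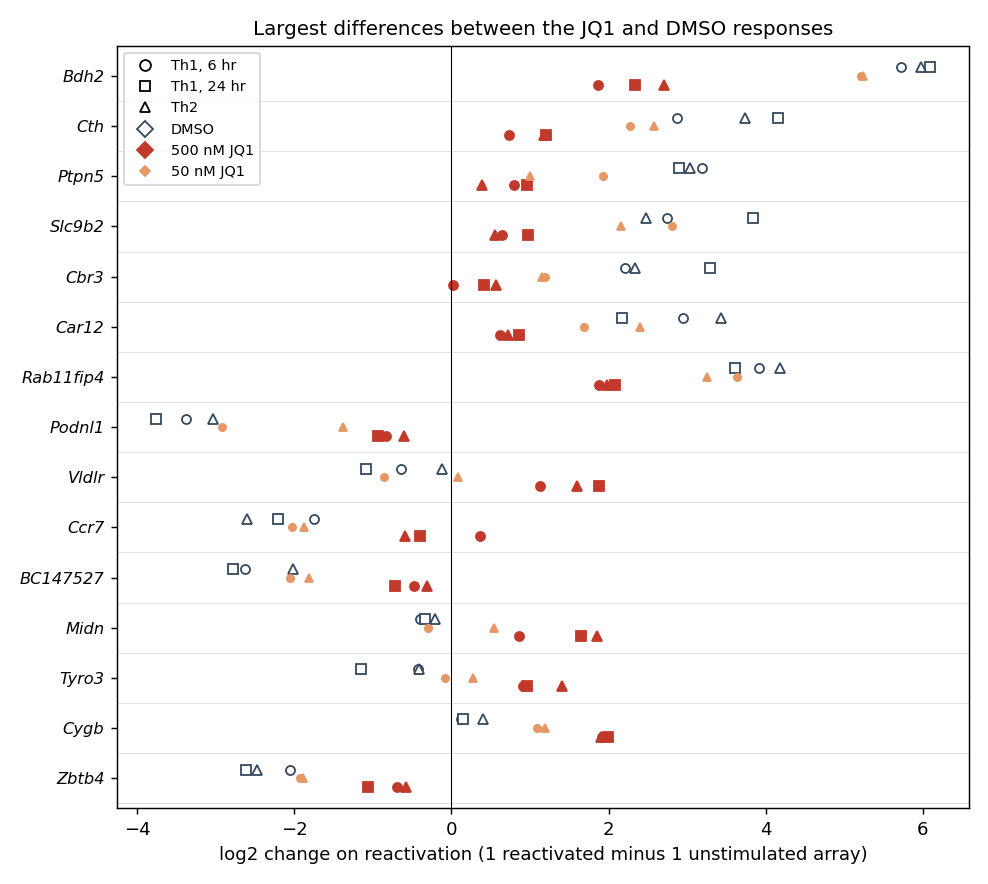
Log2 changes on reactivation (x axis, 1 reactivated minus 1 unstimulated array) of the genes with the largest called differences between 500 nM JQ1 and DMSO, 7 lower and 8 higher, that had at least 6 of 12 arrays and some JQ1 array above background. Shapes are the 3 contexts, filled large markers are 500 nM JQ1, small ones 50 nM JQ1 at 6 hr and open ones DMSO, and for each gene the JQ1 and DMSO markers do not overlap, with Bdh2 at 1.87 to 2.70 against 5.72 to 6.09.

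Among genes with a higher response, Podnl1, a small leucine-rich repeat protein of the matrix, had the largest difference. Its levels in unstimulated cells were -0.55, -0.44 and -1.18 with JQ1 and 1.92, 2.63 and 1.23 with DMSO. In reactivated cells they were -1.38, -1.37 and -1.78 with JQ1 and -1.46, -1.13 and -1.80 with DMSO. The reactivated levels lay side by side, and the treatments differed in unstimulated cells. Its fall was therefore -0.79 with JQ1 and -3.39 with DMSO (difference 2.60 ± 0.21, adjusted p 0.00649).

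Ccr7, the receptor that holds T cells in lymph nodes, changed by 0.37, -0.40 and -0.58 with JQ1 and by -1.75, -2.21 and -2.61 with DMSO. Its levels with JQ1 were -1.27, -1.91 and -2.90 before and -0.90, -2.32 and -3.48 after reactivation. With DMSO they went from -0.38, -1.55 and -2.21 to -2.12, -3.76 and -4.81. The difference of 1.98 ± 0.30 was called (adjusted p 0.0466), and with a pair left out its adjusted p ranged from 0.057 to 0.179. Ifngr1, the ligand-binding chain of the interferon gamma receptor, fell under both treatments, by 1.56 with JQ1 and 3.08 with DMSO. Its unstimulated levels were 1.15, 0.74 and -0.64 with JQ1 against 2.59, 2.29 and 0.16, and its reactivated levels of -0.28, -0.90 and -2.23 lay close to the DMSO levels of -0.63, -1.06 and -2.49. Myb, a factor of lymphocyte progenitors and proliferation, fell by 0.58 with JQ1 and 2.00 with DMSO, a difference of 1.42 (adjusted p 0.0325). Zbtb4, a methyl-DNA binding repressor, fell by 0.78 and 2.38.

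Among the 33 genes with a called higher response, some rose under JQ1 and were not called higher with DMSO. Cygb, cytoglobin, an oxygen-binding globin, had levels of 0.44, 0.23 and 0.19 in unstimulated JQ1 cells. In reactivated JQ1 cells they were 2.36, 2.22 and 2.10. With DMSO all 6 levels lay between -0.02 and 0.41. The changes were 1.92, 1.99 and 1.91 with 500 nM JQ1, 1.09 and 1.19 with 50 nM, and 0.12, 0.15 and 0.40 with DMSO, a difference of 1.71 ± 0.15 (adjusted p 0.00744). Vldlr, a lipoprotein and reelin receptor, changed by 1.13, 1.87 and 1.60 with JQ1 and by -0.64, -1.09 and -0.11 with DMSO (difference 2.15, adjusted p 0.0333). Its unstimulated levels were lower with JQ1 in all 3 contexts. Midn, a nuclear protein that brings substrates to the proteasome, and Tyro3, a receptor tyrosine kinase that binds Gas6, rose by 1.45 and 1.09 with JQ1 and had DMSO means of -0.32 and -0.66. On the spike-in scales no difference for Cygb, Vldlr, Midn or Tyro3 was called. Slc38a1, a glutamine transporter, was the 1 gene of the 33 called higher with DMSO. It changed by 2.79, 3.29 and 3.20 with JQ1 and by 1.81, 1.85 and 1.61 with DMSO (difference 1.34, adjusted p 0.0333).

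At least 2-fold up in all 3 JQ1 pairs and in no DMSO pair were 13 genes, namely Astl, Cx3cl1, Cygb, Ddx43, Eno2, Fam110a, Il2ra, Niban1, Sat1, Scrt2, Synj2, Vldlr and Zdhhc5. The difference was called for Cygb and Vldlr only. The reference channel of Il2ra varied over 2.02 (log2), and from Cy3 alone it changed by 0.86, 1.05 and 2.03 with DMSO, at least 2-fold in 2 of the 3 pairs, so that its place among the 13 holds for the ratio only. Cx3cl1, the membrane-bound chemokine fractalkine, changed by 2.06 with JQ1 and 0.74 with DMSO (difference 1.32, adjusted p 0.0882). Conversely 8 genes fell 2-fold in all 3 JQ1 pairs and in no DMSO pair, Cenph, Cipc, Depdc1a, Fancb, Oip5, Rassf5, Trex1 and Ttc33, and no difference among them was called. Trex1, a DNA exonuclease that limits cytosolic DNA, fell by 1.65 with JQ1 and had a DMSO mean of -0.39 (adjusted p 0.0874 for the difference).

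Of the 14 opposite calls, 4 genes were lower with JQ1 and higher with DMSO, Sox4, Ticam1, Pdcd2 and Tfdp1. The other 10, Lypd6b, Prdm1, Tnp2, Ets1, Tob1, Pfkfb4, Map7d1, Chd3, Tyro3 and Vldlr, were higher with JQ1 and lower with DMSO. The difference itself was called for Tob1, Map7d1, Tyro3 and Vldlr. Tob1, an antiproliferative factor of resting T cells, had levels of 1.93, 1.72 and 1.86 in unstimulated and 2.55, 2.08 and 2.50 in reactivated JQ1 cells. With DMSO they were 0.49, 0.04 and 0.73 and then -0.12, -0.59 and -0.37. All JQ1 levels thus lay above all DMSO levels, and the changes ran in opposite directions, 0.54 and -0.78 (difference 1.32, adjusted p 0.0367). Ets1, a factor needed for T cell survival and Th1 cytokine expression, changed by 0.51 with JQ1 and -0.75 with DMSO (adjusted p 0.0585 for the difference). Prdm1, the factor Blimp-1, changed by 0.46 and -0.51 (adjusted p 0.0979).

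Gene lists were then read by function. Cytokines are the output by which a T helper cell acts, and 18 of 24 on the array were tested under JQ1. Of these 14 rose and 1, Il16, fell, against 18.4% and 27.7% of all genes tested, 10 rose on either spike-in scale, and the median over the 18 was 2.23 with JQ1 and 3.18 with DMSO, against -0.06 over all genes. The change was smaller with JQ1 for 11 of the 18, against 61.6% of all genes tested with both treatments. Interleukin 2, the T cell growth factor, changed by 7.11, 6.94 and 6.23 with JQ1 against 7.18, 5.55 and 6.00 with DMSO. Its levels went from 0.14, 0.45 and 0.48 to 7.25, 7.39 and 6.71 with JQ1. The reference channel of Il2 varied over 4.75 (log2), and from Cy3 alone the changes were 7.70, 9.40 and 7.10 with JQ1 and 9.61, 10.3 and 8.30 with DMSO, smaller with JQ1 in each context. Csf2, the growth factor GM-CSF, was not above background in unstimulated JQ1 cells and rose at least 42.5-fold (adjusted p 0.000116). Its reactivated levels of 5.34, 6.52 and 5.80 were each below the DMSO levels of 7.51, 7.75 and 6.77, and the difference of its changes, -0.75 (adjusted p 0.241), rests on those dim unstimulated values. The reference channel of Csf2 varied over 2.1 (log2), and from Cy3 alone the mean changes were 5.44 with JQ1 and 7.33 with DMSO.

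Cytokines that define the lineages were read by context, each with 1 pair. Ifng, the interferon of Th1 cells, went from 6.04 to 8.40 in Th1 cells at 6 hr, from 5.48 to 8.43 at 24 hr and from 0.05 to 4.79 in Th2 cells with JQ1. With DMSO the same pairs ran from 7.15 to 8.59, from 7.08 to 8.33 and from 0.65 to 6.20. The Th1 ratios thus changed by 2.35 and 2.95 with JQ1 and by 1.44 and 1.25 with DMSO, and the difference over all pairs was not called (0.60, adjusted p 0.845). The reference channel of Ifng varied over 5.23 (log2) between arrays, and from Cy3 alone the 3 contexts changed by 6.39, 7.58 and 4.30 with JQ1 and by 5.30, 5.18 and 5.54 with DMSO. Il4, the cytokine of Th2 cells, changed by 1.10, 2.35 and 5.29 with JQ1 and by 2.96, 4.30 and 4.50 with DMSO. In Th2 cells its level went from 1.67 to 6.96 with JQ1 and from 3.52 to 8.02 with DMSO. Il5, the eosinophil growth factor of Th2 cells, was above background on 1 JQ1 array only and was not tested. Il13, also of Th2 cells, changed by 1.11, 1.87 and 3.15 against 3.48, 4.17 and 3.78 (difference -1.77, adjusted p 0.14), and its rise under JQ1 was at least 3.48-fold (adjusted p 0.00453) as unstimulated cells were not above background. Lif, a cytokine of the interleukin 6 family and likewise dim in unstimulated cells, rose at least 2.36-fold under JQ1 (adjusted p 0.0006). Lta, lymphotoxin alpha, rose by 1.46 with JQ1 and 2.45 with DMSO. Il21, a helper cytokine for B cells, rose by 4.18 and 3.76. Tnf rose by 3.47 and 3.82, its reference channel varied over 2.97 (log2), and from Cy3 alone the means were 4.25 with JQ1 and 5.32 with DMSO.

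Of 12 chemokines on the array, 6 passed the filter on the JQ1 arrays and were tested there, which favours members bright under JQ1. With DMSO 10 were tested and 9 rose, against 21.9% of all genes. All 6 chemokines tested under JQ1 rose, against 18.4% of all genes, with a median of 3.04 against 2.19 for the same 6 with DMSO. The change of the ratio was larger with JQ1 for each of the 6. This order did not hold in the Cy3 channel alone, where the change was larger with JQ1 for 3 of the 6, Ccl4, Ccl5 and Cxcl10, and smaller for Ccl1, Ccl3 and Xcl1. Ccl3, which attracts monocytes and T cells, and Xcl1, which attracts cross-presenting dendritic cells, rose by 3.34 and 3.09 with JQ1 and by 2.25 and 2.91 with DMSO. Their reference channels varied over 7.03 and 4.61 (log2) between arrays, and from Cy3 alone the means were 6.64 and 4.47 with JQ1 and 6.78 and 5.52 with DMSO. Ccl1, the ligand of Ccr8, changed by 2.51 and 0.72, a difference of 1.79 (adjusted p 0.0553), but its reference channel varied over 9.07 (log2) between arrays, and from Cy3 alone the order was turned, with means of 6.57 with JQ1 and 8.11 with DMSO. No difference of a chemokine was called. Of 8 TNF family ligands, 7 rose and none fell under JQ1 (18.4% and 27.7% over all genes), with medians of 2.1 and 2.36, and 4 rose on either spike-in scale. Tnfsf11, the ligand RANKL, rose by 4.71 and 4.76, and Tnfsf14, the ligand LIGHT, by 3.46 and 2.57, with a reference channel that varied over 3.27 (log2) and a larger change with JQ1 in each context from Cy3 alone as well. Cd40lg, through which helper cells activate B cells, rose at least 2.58-fold under JQ1 (adjusted p 0.00207), and Fasl, a death ligand, rose by 1.19 with JQ1 and 2.48 with DMSO (adjusted p 0.504 for the difference).

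Early response transcription factors answer antigen receptor signals directly. Under JQ1, 20 of 26 rose and none fell, against 18.4% and 27.7% of all genes tested, with medians of 1.78 with JQ1 and 1.66 with DMSO, and 13 and 12 rose on the spike-in scales. The change was smaller with JQ1 for 7 of the 26, against 61.6% of all genes tested with both treatments. Nr4a1, an orphan nuclear receptor, changed by 1.85, 5.90 and 5.49 with JQ1 and by 1.57, 4.35 and 5.66 with DMSO. Egr4 and Nr4a3 rose by 3.98 and 3.97, and Myc, the driver of growth in activated T cells, by 2.99 with JQ1 and 3.30 with DMSO. Irf4, which scales effector differentiation with signal strength, rose by 2.85 and 2.35. Fosl1 was the member whose difference from DMSO was called. Fosl2, a related AP-1 subunit, changed by 1.79 with JQ1 and 0.78 with DMSO (adjusted p 0.522 for the difference). Of 19 NF-kB factors and targets, 14 rose and 2, Birc2 and Tnip1, fell, against 18.4% and 27.7% of all genes, with medians of 1.5 and 0.969, and 8 and 7 rose on the spike-in scales. The survival gene Bcl2a1d rose by 4.28 and 2.99, the nuclear inhibitor Nfkbid by 3.85 and 3.31, the adaptor Traf1 by 2.78 and 1.72, and Nfkb1 by 2.71 and 2.38. No difference was called in that list.

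Of 20 tested genes of negative feedback on signalling 13 rose and none fell, against 18.4% and 27.7% of all genes, with medians of 1.05 with JQ1 and 0.791 with DMSO over 19 members tested with both. On the spike-in scales 9 and 8 rose. The MAP kinase phosphatase Dusp4 rose by 4.75 and 3.79, and the receptor kinase inhibitor Spry1 by 4.43 and 5.20. Rgs16, which shortens G protein signals, rose by 3.80 and 3.73, but its reference channel varied over 3.09 (log2), and from Cy3 alone its change was smaller with JQ1 in Th1 cells at 6 hr and in Th2 cells (4.81 against 6.42) and larger at 24 hr (6.38 against 5.76). Of 20 activation and inhibitory receptors tested, 15 rose and 3 fell, against the same shares, with medians of 1.56 and 1.5, and 9 and 8 rose on the spike-in scales. Pdcd1, the inhibitory receptor PD-1, rose by 4.13 and 3.97, Cd83 by 2.96 and 2.61, and Cd44, an adhesion receptor of activated cells, by 2.57 and 1.97. Ctla4, a brake on costimulation, Cd28 and Tnfrsf18 fell under JQ1, by 1.65, 0.82 and 0.71. Il2ra, the high-affinity chain of the interleukin 2 receptor, changed by 1.74, 1.23 and 3.15 with JQ1 and by 0.50, 0.24 and 0.87 with DMSO, and from Cy3 alone by 3.53, 2.50 and 4.30 with JQ1 and by 0.86, 1.05 and 2.03 with DMSO. Icos, a costimulatory receptor, changed by 1.59, 1.03 and 2.93 against -0.62, -0.74 and 1.09. In both genes each JQ1 change exceeded the DMSO change of its own context, and neither difference was called (adjusted p 0.173 for Il2ra and 0.182 for Icos). Havcr2, the inhibitory receptor TIM-3, changed by 2.08 and 3.30.

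**Figure D5:**
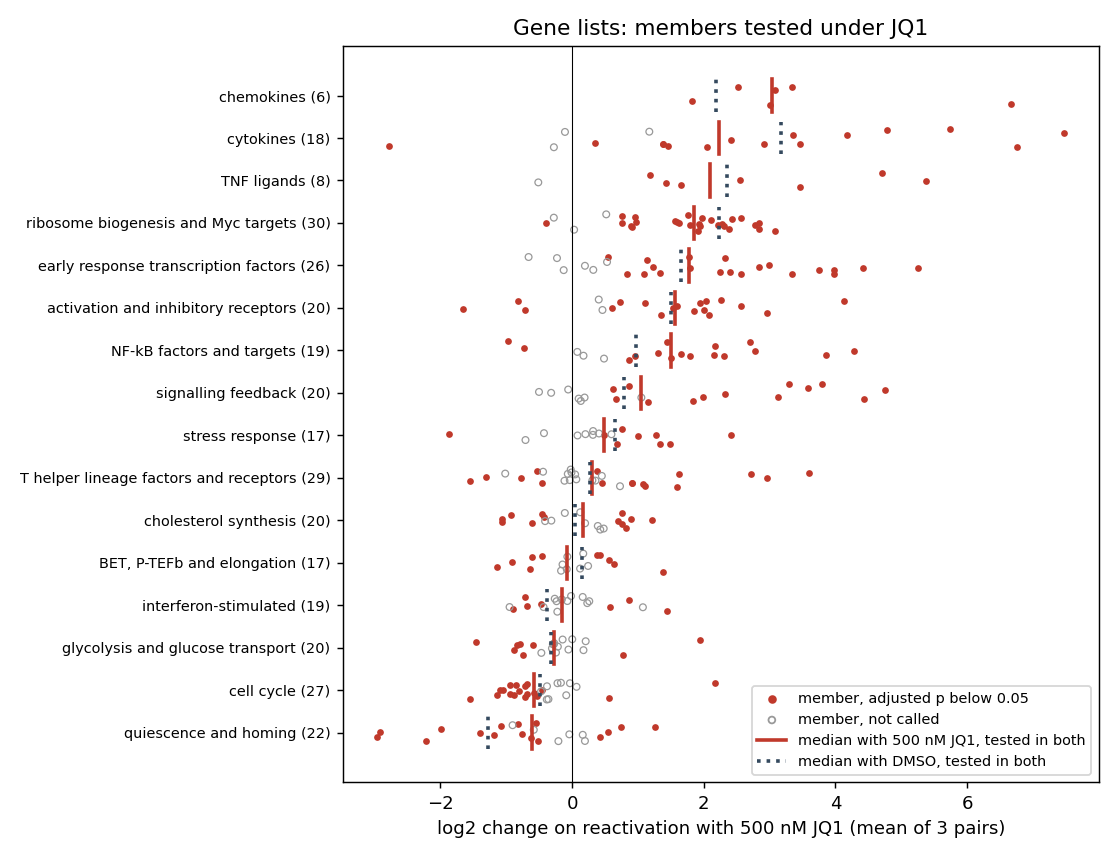
Log2 change on reactivation under 500 nM JQ1 (x axis, mean of 3 pairs) of every tested member of 16 gene lists, with the number tested beside each name. Filled points passed limma at an adjusted p below 0.05 and open points did not, and solid and dotted bars are the JQ1 and DMSO medians over members tested with both, at 2.23 and 3.18 for cytokines.

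Genes of quiescence and homing keep T cells resting and circulating. Under JQ1, 12 of 22 fell and 4 rose, against 27.7% and 18.4% of all genes tested, and on the spike-in scales 10 and 9 fell and none rose. The median was -0.60 with JQ1 and -1.28 with DMSO, and the change was smaller with JQ1 for 19 of the 22, against 61.6% of all genes tested with both treatments. The difference was called for Ccr7 and Tob1. Klf2, the factor that drives S1pr1, had levels of -1.66, -1.31 and -1.35 in unstimulated and -2.15, -2.87 and -2.54 in reactivated JQ1 cells. With DMSO it went from -2.73, -1.78 and -0.89 to -5.06, -5.01 and -4.99. The reactivated groups lay more than 2 log2 units apart, and the changes were -1.08 and -3.22 (difference 2.15, adjusted p 0.0859). Txnip, an inhibitor of thioredoxin and glucose uptake, fell by 2.22 with JQ1 and 3.47 with DMSO (adjusted p 0.0553). Cxcr4, a homing receptor, fell by 0.62 and 2.17. Btg1, an antiproliferative gene, rose by 1.26 with both treatments. Foxo1, a factor that keeps T cells quiescent, rose by 0.74 with JQ1 and had a DMSO mean of -0.11 (adjusted p 0.0974 for the difference).

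Ribosome biogenesis and Myc targets carry the growth that follows activation. Under JQ1, 26 of 30 rose and 1, Tfdp1, fell, against 18.4% and 27.7% of all genes, and with DMSO 29 of 30 rose, against 21.9%. The medians were 1.85 with JQ1 and 2.23 with DMSO, and the change was smaller in size with JQ1 for 27 of the 30, against 61.6% of the 11942 genes tested with both and 71.8% of the 1850 called higher in both. No single difference was called, and on the spike-in scales 18 and 15 of the 30 rose. Spermidine synthase, Srm, rose by 3.09 and 3.78, the ribosome assembly factor Rrs1 by 2.84 and 3.22, and Polr1b, a subunit of RNA polymerase I, by 2.84 and 3.47. Nop56, a core protein of box C/D ribonucleoproteins, changed by 0.66, 1.09 and 0.98 with JQ1 and 1.60, 1.88 and 2.05 with DMSO. These do not overlap, and the difference of -0.93 had an adjusted p of 0.0781. Gnl3 and Rrp9, which act in pre-rRNA processing, rose by 1.91 and 2.22 with JQ1 and by 2.86 and 3.16 with DMSO. Npm1, nucleophosmin, changed by 0.03 and 0.87.

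Of 27 cell cycle genes tested, 2 rose and 16 fell under JQ1 (18.4% and 27.7% over all genes) and 1 and 13 with DMSO (21.9% and 29% over all genes), with medians of -0.58 and -0.49, and on the spike-in scales 1 rose and 8 fell. Ccnd2, the D-type cyclin of lymphocytes, rose by 2.16 and 2.32 with JQ1 and DMSO. Cdkn1a, the inhibitor p21, rose by 0.56 with JQ1, but its reference channel varied over 1.76 (log2), and from Cy3 alone it changed by 1.12, 1.49 and 1.53. Ccnd3, another D-type cyclin, fell by 1.56 and 2.69, and Cdk2, the kinase of S phase entry, by 1.14 and 0.48. Of 20 glycolysis and glucose transport genes 2 rose and 6 fell under JQ1, against 18.4% and 27.7% of all genes tested, with a median of -0.28. With median centring 1 rose and 12 fell, and on the spike-in scales 1 rose and 5 and 3 fell. Pfkfb3, which raises glycolytic flux, rose by 1.94 and 0.91, and Pfkm fell by 1.46 and 1.83. Of 20 cholesterol synthesis genes, 6 rose and 6 fell, near the shares over all genes, with Msmo1 at 1.21 and Pmvk at -1.07, and on the spike-in scales none rose and 3 fell. Of 17 stress genes 8 rose and 1 fell, against the same shares over all genes. On the spike-in scales 1 rose and 2 and 1 fell, and the median of 0.479 became 0.0284 and -0.0522. Hspa5, the chaperone BiP, rose by 1.28 with JQ1 and 2.32 with DMSO, and Hsph1, a cochaperone of Hsp70, by 2.42 and 2.60. Ddit4, an inhibitor of mTORC1, fell by 1.87 and 3.57 (adjusted p 0.0761 for the difference).

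Lineage factors and receptors of T helper cells were mixed, with 11 of 29 higher and 5 lower under JQ1, against 18.4% and 27.7% of all genes tested. On either spike-in scale 3 were higher and 3 lower, and the median of 0.309 became -0.0634 and -0.223. Tbx21, the Th1 factor T-bet, changed by 0.66 and 1.67 in Th1 cells and 0.99 in Th2 cells with JQ1, against 0.70, 0.81 and 4.66 with DMSO. The Th2 DMSO change was the only one far from the rest, and the difference was not called (-0.95, adjusted p 0.697). Cxcr3, a chemokine receptor of Th1 cells, had a like pattern, with 0.36, 0.26 and 0.49 under JQ1 and 0.71, 0.46 and 4.17 with DMSO. Gata3, the Th2 factor, rose by 1.07 with JQ1 and 0.53 with DMSO. Furin, a protease that matures precursor proteins, rose by 3.59 and 2.75, Eomes, a relative of T-bet, by 2.97 and 2.88, and Il12rb1 by 2.71 and 1.97. Stat4, which relays interleukin 12, and Ifngr1 fell, by 1.31 and 1.56. The difference was called for Ifngr1 in this list.

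The proteins that JQ1 acts on and the elongation machinery next to them came next. Brd2 rose by 0.57 ± 0.14 with JQ1 (adjusted p 0.0152), which was not called with median or spike-in centring, and Brd3 fell by 0.64 (adjusted p 0.0162), which was not called on the spike-in scales. With DMSO the means of Brd2 and Brd3 were 0.56 and -0.56. Hexim1, an inhibitor of P-TEFb whose RNA is widely used to follow BET inhibition, fell by 0.61 on reactivation with JQ1 (adjusted p 0.00802). Its level before and after reactivation was 0.33 and -0.10 in Th1 cells at 6 hr, -0.47 and -1.22 at 24 hr and 0.99 and 0.33 in Th2 cells with JQ1. With DMSO these were -1.45 and -1.69, -1.44 and -1.72, and -0.84 and -1.41. Each JQ1 array thus lay above the DMSO array of its own condition. Over the 17 genes of this list 5 rose and 5 fell under JQ1, against 18.4% and 27.7% of all genes tested, and none rose and 2 fell on the spike-in scales. Ell2, a subunit of the super elongation complex, rose by 1.37 with JQ1 and 2.58 with DMSO (difference -1.20, adjusted p 0.0781), and Mepce, the capping enzyme of 7SK RNA, fell by 1.13 and 1.19.

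The contexts differed from each other under JQ1, each with 1 pair and so with no test. At least 2-fold up were 627 genes in Th1 cells at 6 hr, 1010 at 24 hr and 1000 in Th2 cells, and 747, 1157 and 1263 were down. Up in 1 context only were 47, 227 and 214 genes. The largest gaps between the Th1 pairs were those of Nr4a1 and Egr2, given above, of Il21 with 3.49 at 6 hr and 6.26 at 24 hr, of Pde2a, a cyclic nucleotide phosphodiesterase, with 2.09 and -0.75, and of Trib3, a stress-induced pseudokinase, with 0.76 and -2.10. With DMSO these 5 genes had gaps of the same sign, at 1.57 and 4.35, 3.39 and 5.13, 2.29 and 5.04, 1.06 and -2.50, and -0.87 and -1.50 in that order. The largest gaps between Th1 and Th2 cells at 6 hr, besides Nr4a1, were all of genes induced by interferon. Gbp2, a guanylate-binding protein, changed by -0.79 in Th1 and 3.27 in Th2 cells. Gm4951, Igtp and Tgtp2, of the immunity-related GTPases, changed by -1.63, -2.22 and -1.40 in Th1 cells at 6 hr and by 2.19, 1.53 and 2.33 in Th2 cells. Over the whole interferon-stimulated list 3 of 19 genes were called higher and 4 lower, near or below the 18.4% and 27.7% of all genes tested, and none higher on the spike-in scales.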

How the data were processed

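Expression was measured on 24 dual-colour Agilent arrays, of which the 6 with 500 nM JQ1 and the 6 with DMSO entered the tests. The deposited scanner files held median spot and background intensity, from Agilent Feature Extraction 10.7.1.1 with a grid of build mm9 per the file headers. The deposited files also held log10 ratios of Cy5 over Cy3, which the scanner software had made after its own background and dye correction. The authors deposited a table of log2 ratios for 34710 probes, whose normalization was not stated, and for the JQ1 arrays it correlated with the values used here at r of 0.990 to 0.994. Columns of the authors' own comparisons were not used.

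Background was corrected by normexp (offset 50) on medians, where the design had named means, and loess was applied within arrays (limma 3.58.1, R 4.3.3). Of 62976 spots, 59305 were no controls. Flagged spots were left out, 234 to 317 on each JQ1 array, and no spot was saturated. Repeated spots were averaged, with an SD of about 0.09 to 0.10 (log2). Names came from the RefSeq table of GRCm38.p6, and 26437 of 55681 probes carried 1 of 20028 symbols, 29244 carried none. A gene was its brightest probe, well above background in Cy3 on at least 3 arrays of the fit. The number of arrays limits the precision. The reference channel differed between JQ1 arrays with an SD of 0.157 (log2, median of 15 pairs of arrays).

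The JQ1 fit had the pair as a block (lmFit, eBayes). The difference was fitted on 12 arrays with 6 pairs as blocks and 1 response per treatment. Both arrays of a pair lay on the same slide, so that slide is held within the block for changes. The Th2 pair with 500 nM JQ1 lay on slide 2 and the Th2 pair with DMSO on slide 1. Where levels of Th2 cells are set side by side, treatment and slide cannot be told apart. A bound ("at least N-fold") sets the mean Cy3 level of the bright group over the higher of the dimmest probe above background and the gene's own signal. Named genes were the 10 largest called rises and falls above background on all 6 arrays, the 8 largest called differences on either side above background on at least 6 of 12 arrays, members of each list with the 3 largest rises, falls or differences, the 5 largest gaps between contexts, and Brd2, Brd3 and Hexim1. Some genes under this rule are not reported here. Others were chosen after their values were seen. The members and lists were chosen with earlier results of these data known. Scripts were tested on simulated data.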

Additional observations from a re-analysis of the deposited data

Results flagged for a closer look

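Only named genes and members of the gene lists were searched, among those above background on all 6 JQ1 arrays. Of these, 4 fell at least 2-fold in both Th1 pairs and rose at least 2-fold in the Th2 pair. The values are log2 changes on reactivation with 500 nM JQ1, in Th1 cells at 6 hr, Th1 cells at 24 hr and Th2 cells. Gm4951 changed by -1.63, -1.24 and 2.19, Ifi47 by -1.32, -1.20 and 1.85, Igtp by -2.22, -2.16 and 1.53, and Tgtp2 by -1.40, -1.98 and 2.33. All 4 encode interferon-inducible GTPases. The genes searched held an interferon-stimulated list, and Gm4951, Igtp and Tgtp2 had been named for their gap between Th1 and Th2 cells. What the 4 share is therefore no result over all genes. They drew attention because the cell types moved in opposite directions, and the difference was not tested, as each context had 1 pair. With DMSO the same contexts gave -1.76, -1.92 and 1.68 for Gm4951, -2.08, -1.63 and 1.65 for Ifi47, -2.50, -2.78 and 1.17 for Igtp, and -2.20, -2.33 and 1.61 for Tgtp2. With 50 nM JQ1 the Th1 6 hr and Th2 pairs gave -1.79 and 2.45, -1.72 and 1.73, -2.85 and 1.40, and -2.02 and 1.87 in the same order of genes.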

How the results depend on the processing

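With 1 array per condition and 3 pairs, counts of calls moved with the scale. Median centring left 1081 genes called higher under JQ1, centring on spike-ins 354 and shifting by them after loess 277, and genes called lower 1685 and 1529 on the spike-in scales. At least 2-fold in 3 of 3 pairs were 497 and 488. Leaving out a pair gave 1484 to 1972 higher and 2456 to 2928 lower. Without the pair block, which is where the arrays are matched, 1535 and 2284 were called. The differences from DMSO called higher and lower were 7 and 17 when centred on the median, 3 and 67 with spike-in centring, 0 and 70 with the spike-in shift, 3 and 4 with the scanner software's log ratio, 13 and 16 with the authors' table, 16 and 15 with the mean of a gene's probes, 26 and 11 with all arrays above background, 820 and 780 with matched contexts, 5 and 11 without the Th2 pairs, and 1 to 25 and 3 to 32 with a pair left out. The spike-in scales moved the median difference of all genes to -0.57 and -0.75.

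The percent of the DMSO response kept under JQ1, for genes up and down, was 35.17 and 69.10 with median centring, 11.62 and 66.59 with spike-in centring, 10.54 and 68.85 with the spike-in shift, 43.84 and 28.57 at 4-fold, and 17.66 and 13.37 of genes called by limma with DMSO. For genes down it was 52.64 with the scanner software's log ratio and 63.09 at 1.5-fold. Without both pairs of a context, an alternative chosen after seeing the data, it ran from 50.62 to 62.44 and from 48.46 to 54.44, highest without the Th1 6 hr pairs. The scoring on genes chosen in the other contexts and the gene list counts per scale were added after seeing the data too. Of the values of named genes, 1112 kept their direction and side of the threshold, 163 lost and 12 gained a call, and the difference of Bdh2 turned to 0.34 with the scanner software's log ratio. The cause was not tested in these cases. Genes not above background in unstimulated cells have only a lower bound on their rise.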
